A study of Mus musculus with 2 samples.

Results

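The STAT transcription factors described here are 6 genes of 54680 loci in the deposited gene table, Stat2, Stat3, Stat4, Stat5a, Stat5b and Stat6. They were chosen by gene name, and each name stood on 1 locus. RNA sequencing was done on CT26, a colon cancer line from the mouse. The shSetdb1 cells had received a lentivirus with a short hairpin RNA that targets Setdb1, and have the genotype Setdb1 knockdown in the labels, which call them differentiated. The shCtrl cells carried lentivirus with the empty knockdown vector and have the genotype wild type, so both groups had been infected. Both were grown for 6 days in RPMI medium with serum. Each group had 1 library, and the labels do not say how many hairpins were used or whether the cells were clones or pools. The differences below therefore have no replicate check and describe these 2 libraries.

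STAT proteins wait in the cytoplasm as latent transcription factors. Cytokine and interferon receptors carry JAK kinases, which phosphorylate a STAT on a tyrosine, and the STATs then pair through their SH2 domains, enter the nucleus and bind DNA. Stat2 works in the interferon complex ISGF3 together with Irf9, Stat3 serves the IL-6 family that signals through gp130, Stat4 serves IL-12, Stat5a and Stat5b serve growth hormone, prolactin and many haematopoietic cytokines, and Stat6 serves IL-4 and IL-13. Setdb1 encodes a histone H3 lysine methyltransferase that silences endogenous retroviruses and other repeats.

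Whole reads could be recovered from all values above 0, giving 18421604 reads in the shCtrl library and 19045830 in the shSetdb1 library. Setdb1 itself was at 10.4 FPKM in shCtrl and 2.47 FPKM in shSetdb1, which is 23.7% of the control level. FPKM is a fragment count scaled by gene length and depth. Of 13 colon epithelium markers, 3 reached 1 FPKM (Krt18, Krt19 and Krt20), Krt19 only in shSetdb1, with 1 read in shCtrl and 53 in shSetdb1. The summed level over all 13 was 43.9 FPKM in shCtrl and 128 FPKM in shSetdb1, mostly from Krt18 (37.7 and 90.0 FPKM) and Krt20 (5.07 and 35.6 FPKM). Under 1 FPKM, Krt8, Vil1 and Cdx2 had more reads in shSetdb1, and Lgals4, Muc2 and Cldn7 had fewer. The other 4 genes on that list, Epcam, Cdh1, Cdx1 and Lgr5, had no reads in either library. None of 13 immune cell markers reached 1 FPKM; they held 26 reads in shCtrl and 31 in shSetdb1 in all, and Cd3e, Itgam and Adgre1 were among 8 with no reads. Of 8 stromal and endothelial markers, 3 reached 1 FPKM, with sums over the 8 of 46.3 and 40.6 FPKM. Col1a1 had a lower value in shSetdb1, at 32.1 and 24.0 FPKM. The other 2 were higher, Pdgfrb at 13.5 and 14.6 FPKM and Pdgfra at 0.501 and 1.77 FPKM. Pdgfra reached the filter only in shSetdb1, and the endothelial genes Pecam1 and Cdh5 were at 0. The part of the epithelial markers in the results below was not tested.

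Of the 6 STAT genes, 5 had reads and passed the filter of 1 FPKM in at least 1 library, and all 5 had a higher value in shSetdb1. Stat2 stood out in size, and Stat4 had no read at all. Only Stat2 was at least 2-fold higher on the scale of log2(FPKM + 1), 1 of 5 genes, where 6.81% of the 10671 genes at 1 FPKM or more were 2-fold higher and 4.85% were 2-fold lower. Stat3 was in addition past 1.5-fold, making 2 of 5, against 16.9% of all genes. The median log2 ratio of the 5 was 0.34, and that of all 10671 genes was -3.9e-04, with quartiles of -0.36 and 0.38. Summed over the 6 genes, the level was 73.1 FPKM in shCtrl and 115 FPKM in shSetdb1, which is 56.7% higher. In a bulk library, a larger share of cells with a transcript and more transcript per cell cannot be told apart.

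**Figure D1:**
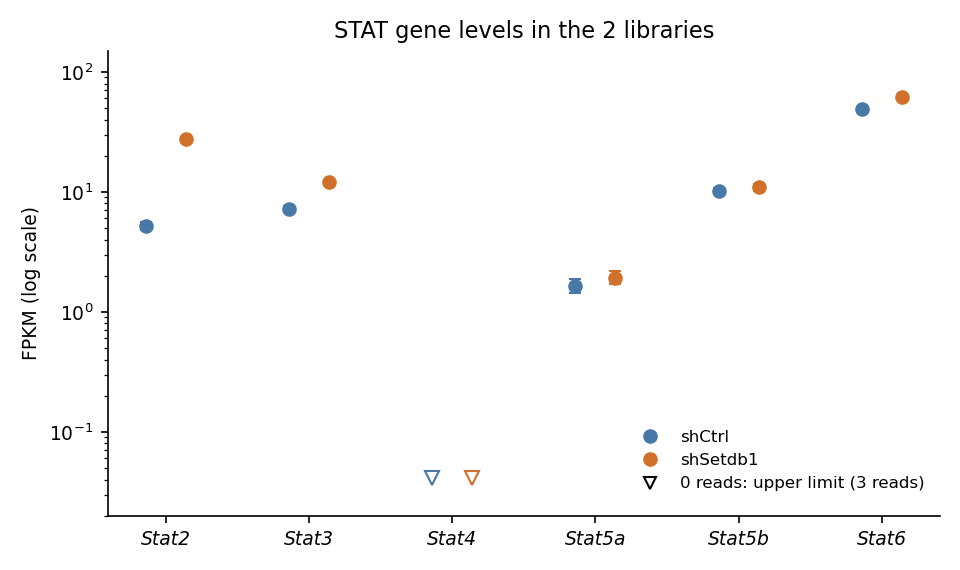
FPKM of the 6 STAT genes on a log axis in the shCtrl (blue) and shSetdb1 (orange) libraries, with 95% Poisson counting intervals, most of them narrower than the points. Stat2 moves from 5.21 to 27.5 FPKM, the pairs of points of Stat5a and Stat5b lie close together, and the open triangles mark the limit of 0.0414 FPKM that 3 reads set for Stat4, which is not the Poisson bound drawn for the other genes.

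Stat2 (ENSMUSG00000040033, plus strand of chromosome 10, 128270559 to 128292849 in GRCm38) was at 5.21 FPKM in shCtrl, from 578 reads, and at 27.5 FPKM in shSetdb1, from 3051 reads. The counting intervals of these levels, 4.79 to 5.65 FPKM and 26.5 to 28.5 FPKM, did not overlap. The log2 ratio was 2.20. Relative to each library's own total, the read ratio was 5.11, with a 95% exact binomial (Clopper-Pearson) interval of 4.67 to 5.59. Such intervals account for counting error and nothing else: without molecular identifiers, PCR copies of 1 molecule count as separate reads. Among the 10671 genes, 84 had a higher log2 ratio than Stat2, which is 0.787%. No other locus with reads overlapped the Stat2 gene. Its principal transcript in GENCODE M21 has 24 exons and a coding sequence of 2766 bases.

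The bases before the Stat2 start are shown because interferon-induced genes often carry an interferon-stimulated response element (ISRE), the DNA element that ISGF3 binds. The stretch of 250 bases before the RefSeq start of Stat2, at position 128270498, is chr10:128270248-128270497 on the plus strand, from the RefSeq promoter table on GRCm38.p6. Capitals mark an ISRE core and, after it, a palindrome of the GAS type (the element bound by STAT pairs) with 4 bases between its arms.
Stat2 upstream: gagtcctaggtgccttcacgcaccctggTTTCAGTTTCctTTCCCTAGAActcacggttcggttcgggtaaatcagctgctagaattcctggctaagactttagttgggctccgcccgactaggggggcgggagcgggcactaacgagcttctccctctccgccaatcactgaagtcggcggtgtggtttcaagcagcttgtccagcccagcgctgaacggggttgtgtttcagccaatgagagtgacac

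The ISRE core was searched on both strands as GAAA and GAAA with any 2 bases between them, which reads TTTC and TTTC from the other strand. In Stat2 it began 222 bases before the RefSeq start, which lies upstream of the deposited gene start at 128270559. Distances in Stat2 are from the RefSeq start. Of all 32851 promoters in the table, each of 250 bases before and 50 after a start, 1131 held it, which is 3.44%. The table held 9 promoters for the 6 STAT genes, every gene being matched, and 2 of the 9 held the ISRE core, the Stat2 promoter and that of a second, internal start of Stat4. The usual GAS core, TTC and GAA with any 3 bases between them, stood in 8.30% of all promoters and in none of the 9. The form with 4 bases between these arms, which was added after the data were seen, stood in the Stat2 promoter 210 bases before the start, overlapping no base of the ISRE core. It stood in 1 of the 9 STAT promoters and in 6.95% of all promoters. A match describes letters and not a bound site. For 22 known ISGF3 target genes, 17 had a promoter in the table and 10 of these held the ISRE core. The 30-base windows below set the Stat2 match beside that of Stat4 and those of 3 such target genes, with the core in capitals.
Stat2, chr10:128270266-128270295, plus strand: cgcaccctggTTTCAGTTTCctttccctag
Stat4, chr1:52008133-52008162, plus strand: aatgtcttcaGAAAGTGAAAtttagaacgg
Ifit1, chr19:34640794-34640823, plus strand: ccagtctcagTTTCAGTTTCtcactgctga
Ifit3, chr19:34583397-34583426, plus strand: tttaagtctgTTTCAGTTTCtactttcctc
Oas3, chr5:120777715-120777744, minus strand: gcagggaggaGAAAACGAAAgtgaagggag
The core of Stat2 had the same letters as the second match of Ifit1 and of Ifit3, which encode antiviral proteins. The 10 target genes held 16 matches in all; read on either strand, 4 of these had the letters of Stat2 (in Bst2, Ifit1, Ifit3 and Oas1a) and 12 had others. The 3 target windows shown were chosen after these letters were seen. Ifit3 was at 0.367 FPKM in shCtrl and 12.1 FPKM in shSetdb1. Ifit1 was at 0.382 and 4.62 FPKM, and Oas3, an enzyme that makes 2'-5' oligoadenylates on double-stranded RNA, at 3.77 and 59.1 FPKM. Stat4, whose match stands before its internal start only, had no reads in either library.

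Irf9 (ENSMUSG00000002325, chromosome 14, 55603571 to 55610030), the DNA-binding partner of Stat2, was at 6.34 FPKM (640 reads) in shCtrl and 26.0 FPKM (2625 reads) in shSetdb1. Its log2 ratio of 1.88 was the highest among 6 STAT partners and coactivators and the only one past 2-fold. The read ratio was 3.97 (3.64 to 4.33), and that of Stat2 was 1.29 times as large, with a counting interval of 1.13 to 1.46. The Irf9 gene overlaps Rnf31, which had 990 and 2542 reads, and no source gives the strand setting of the counting, so that reads in the shared stretch cannot be assigned. The histone acetyltransferases Crebbp and Ep300, which act as coactivators of many STATs, had lower values in shSetdb1. Crebbp was at 2.12 and 1.07 FPKM (log2 ratio -0.59), and neither it nor Ep300 passed 2-fold on log2(FPKM + 1). The read ratio of Crebbp, which has no pseudocount, was 0.489 (0.421 to 0.567), just past 2-fold lower. The median of the 6 genes was -0.21.

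Stat3 (ENSMUSG00000004040, minus strand of chromosome 11, 100885098 to 100939540) was at 7.23 FPKM (1290 reads) in shCtrl and 12.0 FPKM (2148 reads) in shSetdb1. The level was 66.5% higher in shSetdb1, and the counting intervals, 6.84 to 7.63 and 11.5 to 12.6 FPKM, did not overlap. Its read ratio was 1.61 (1.502 to 1.73), for a log2 ratio of 0.66. Of the 10671 genes, 14.4% had a higher log2 ratio, so that Stat3 lay in the upper part of the distribution without passing 2-fold. Its gene overlaps that of Stat5a by 72 bases, and the 2 genes lie on opposite strands.

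Stat6 (ENSMUSG00000002147, plus strand of chromosome 10, 127642986 to 127660957) had the highest level of the 6 in both libraries. It was at 48.8 FPKM (4024 reads) in shCtrl and 62.2 FPKM (5129 reads) in shSetdb1. The level was 27.5% higher in shSetdb1, a log2 ratio of 0.34, and the read ratio was 1.23 (1.18 to 1.29). This interval lay above 1, but 27.0% of all genes had a higher log2 ratio, so the value lay below the upper quartile of the distribution. The end of the gene overlaps the end of Nab2, a repressor of early growth response factors, by 40 bases. Nab2 had 1891 and 3763 reads.

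Stat5a (ENSMUSG00000004043, plus strand of chromosome 11, 100859351 to 100885169) was at 1.64 FPKM (219 reads) in shCtrl and 1.93 FPKM (258 reads) in shSetdb1. Stat5b (ENSMUSG00000020919, minus strand of chromosome 11, 100780731 to 100850724) was at 10.2 FPKM (1061 reads) and 10.9 FPKM (1129 reads). The 2 genes are close paralogs with nearly the same role in cytokine signalling. Their log2 ratios were 0.15 and 0.08, and both counting intervals of the read ratio included 1, from 0.948 to 1.37 for Stat5a and from 0.946 to 1.12 for Stat5b. A difference between the libraries was not detectable for either gene at this depth, and the intervals leave room for a Stat5a level up to 1.37 times as high. Their transcripts share sequence: of all 50-base windows of the Stat5a principal transcript, 15.8% occur unchanged among all Stat5b transcripts, and of 100-base windows 6.99%. No other pair of the 6 genes shared a single window of either length. How reads that match both genes were counted is not stated, so the split between Stat5a and Stat5b is less certain than their sum.

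Stat4 (ENSMUSG00000062939, plus strand of chromosome 1, 51987148 to 52107189) had 0 reads in both libraries, which allows a level of up to 0.0414 FPKM in each (3 reads per library, for counting error only). The upper bound of the Poisson interval used for the other levels is 0.0509 FPKM. Stat4 is best known from T cells and natural killer cells, and the immune cell markers Cd3e and Ncr1 were also without reads. Stat4 is left out of the ratios below.

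The order of the levels differed between the libraries. Per deposited gene length, it was Stat6, Stat5b, Stat3, Stat2, Stat5a and Stat4 in shCtrl, and no neighbours in this order had overlapping counting intervals. In shSetdb1 the order was Stat6, Stat2, Stat3, Stat5b, Stat5a and Stat4, and the intervals of Stat3 and Stat5b did overlap. Stat2 made up 7.12% of the summed FPKM of the 6 genes in shCtrl and 24.0% in shSetdb1. The share of Stat6 was 66.8% and 54.3%, that of Stat5b 14.0% and 9.50%, that of Stat3 9.89% and 10.5%, and that of Stat5a 2.24% and 1.69%. These shares are relative, so that a larger share of Stat2 lowers the others. Stat5b, with 1061 and 1129 reads, had a smaller share without having fewer reads.

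Levels between genes rest on the length of the gene model. The deposited Stat3 model of 9527 bases holds all annotated exons, while its principal transcript has 4516 bases. With principal transcript lengths, a choice made after the data were seen, Stat3 stood above Stat5b in shCtrl too, at 15.3 against 10.9 FPKM. The share of Stat3 was then 16.4% and 16.9%. Stat2 remained second in shSetdb1, with 24.7% of the sum against 7.55% in shCtrl.

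**Figure D2:**
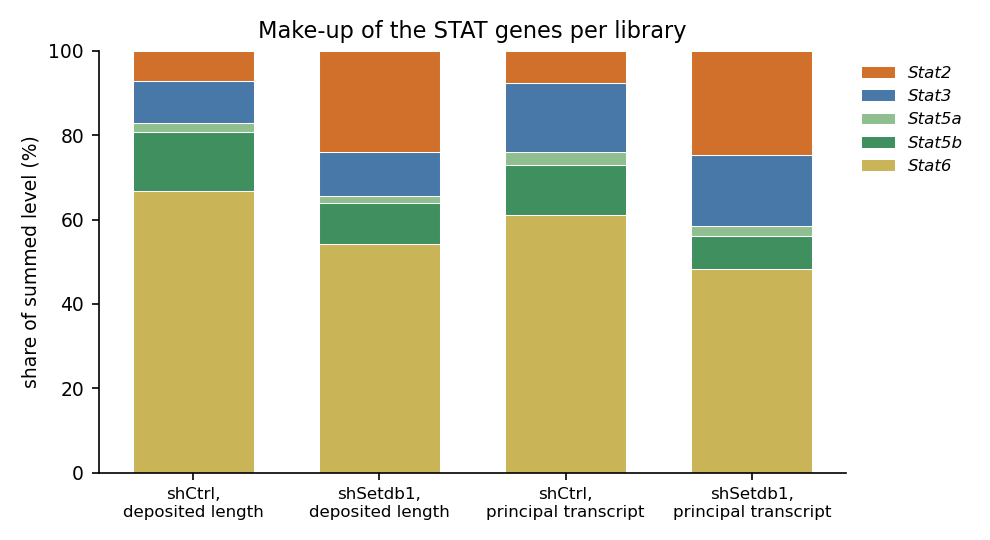
Share of each STAT gene in the summed level of the 6 genes, in percent, for the shCtrl and shSetdb1 libraries, with deposited gene lengths (left pair of bars) and with principal transcript lengths (right pair). The orange Stat2 segment is 7.12% in shCtrl and 24.0% in shSetdb1 with deposited lengths, and 7.55% and 24.7% with transcript lengths; Stat4 is at 0.

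The 5 genes with reads form 10 pairs, and the ratio of their read ratios says whether 2 genes differed between the libraries by unlike amounts. With intervals widened to 99.5% to allow for the 10 pairs, 8 pairs had an interval that left out 1. The read ratio of Stat2 was 3.17 times that of Stat3 (2.70 to 3.73) and 4.96 times that of Stat5b (4.16 to 5.92). That of Stat3 was 1.31 times that of Stat6 (1.16 to 1.47) and 1.56 times that of Stat5b (1.34 to 1.83). The 2 pairs whose interval included 1 were Stat6 with Stat5a, at 1.08 (0.826 to 1.42), and Stat5a with Stat5b, at 1.11 (0.829 to 1.48). The read ratios thus fell in the order Stat2, Stat3, Stat6, Stat5b, with Stat5a below Stat3 and not told apart from Stat6 or Stat5b at this depth.

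**Figure D3:**
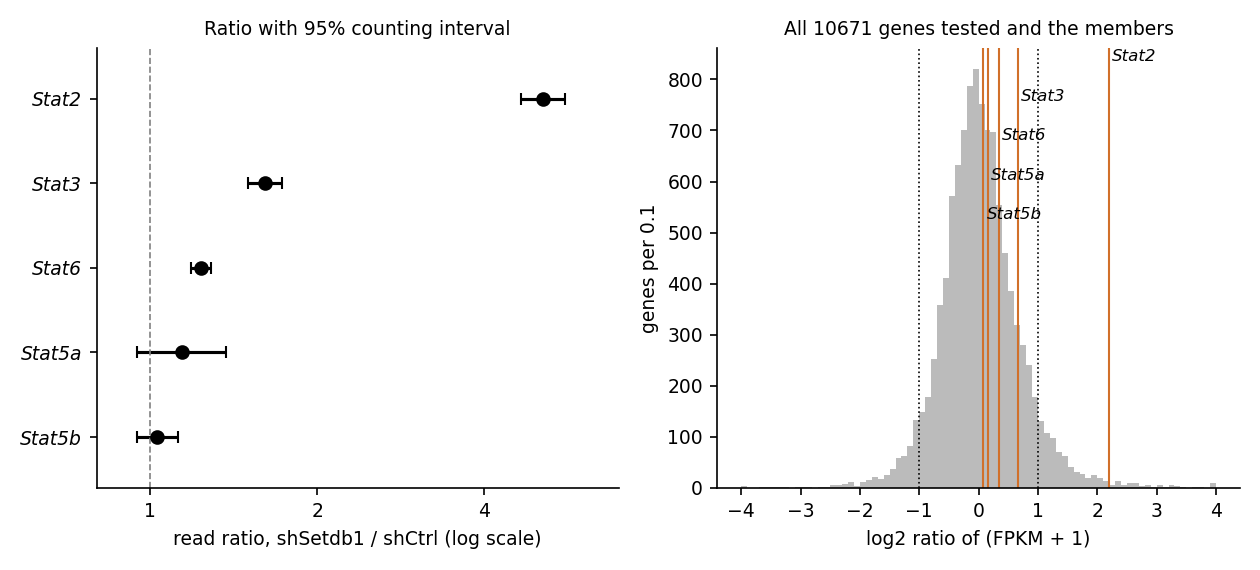
Left, read ratio of shSetdb1 over shCtrl relative to the library totals on a log axis, with 95% exact counting intervals; Stat2 is at 5.11, and the intervals of Stat5a and Stat5b cross the dashed line at 1. Right, histogram of the log2 ratio of (FPKM + 1) over the 10671 genes at 1 FPKM or more, with values beyond the axis drawn in the end bins, the STAT genes as orange lines and the 2-fold thresholds as dotted lines; Stat2 alone lies past the upper one.

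With 2 libraries, the pattern of a gene is its pair of levels, and likeness was measured as the distance between pairs of log2(FPKM + 1). The protein-coding gene closest to Stat2 was Acvrl1, a receptor kinase of the BMP family, at 5.53 FPKM in shCtrl and 27.9 FPKM in shSetdb1 (distance 0.0772). Only 22 protein-coding genes lay within 0.5 of Stat2. Around the other 4 STAT genes with reads there were between 361 (Stat6) and 869 (Stat5a) such genes. The closest were Rassf1 to Stat3, Cep76 to Stat5a, Tmc6 to Stat5b and Scaf1 to Stat6. Stat2 therefore had a rarer pair of levels than the others.

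Upstream of the STATs, the 4 JAK kinases were all expressed, and none passed 2-fold on log2(FPKM + 1). Tyk2, which docks on the interferon receptor chain Ifnar1, was at 8.80 FPKM in shCtrl and 13.6 FPKM in shSetdb1 (log2 ratio 0.57). Jak1, its partner on Ifnar2, was at 6.78 and 5.11 FPKM (-0.35), and the read ratio of Tyk2 was 2.05 times that of Jak1 (1.80 to 2.32). Jak2, the kinase of the growth hormone and erythropoietin receptors, was at 2.54 and 0.998 FPKM (-0.82), with a read ratio of 0.380 (0.296 to 0.485). It was past 2-fold lower on log2(CPM + 1) (-1.24) and with a pseudocount of 0.1 (-1.26). The kinases thus lay on both sides of 0, with a median of 0.04. This median was just below 0 by own read totals (-0.0047), upper quartile (-0.0083), without the 100 highest genes (-0.015) and on log2(CPM + 1) (-0.013). Of 6 interferon receptor chains, 5 reached 1 FPKM and none passed 2-fold on the same scale. Ifngr2, the signalling chain of the interferon gamma receptor, was at 5.10 and 10.8 FPKM (0.95), and passed 2-fold on log2(CPM + 1) (1.001) and with a pseudocount of 0.1 (1.07). The other chain, Ifngr1, was at 8.91 and 8.79 FPKM (-0.02). Ifnar1 was at 8.36 and 9.81 FPKM, and Ifnar2 at 7.12 and 7.57 FPKM. Ifnb1, the ligand for those chains, had 1 read in shCtrl and 5 in shSetdb1, a read ratio of 4.84 whose interval ran from 0.541 to 229, so that a difference was not detectable at this depth.

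On the Stat3 side, 4 of 9 receptor chains of the gp130 family reached 1 FPKM, none past 2-fold, with a median of -0.09. Il6st, which encodes gp130 itself, was at 11.1 FPKM in shCtrl and 7.003 FPKM in shSetdb1 (-0.60). Il11ra1, the IL-11 receptor, was at 1.33 and 2.54 FPKM (0.61), but its gene overlaps 6 loci with reads. Lifr and Cntfr had no reads. The ligand Il11 was past 2-fold, at 0.823 FPKM (31 reads) and 6.37 FPKM (240 reads), and Lif, a gp130 cytokine that needs Lifr, was at 10.5 and 17.1 FPKM (0.66). Il6 had 0 and 2 reads.

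On the Stat6 and Stat4 side, 2 of 6 receptor chains reached 1 FPKM. Both were past 2-fold higher, against 6.81% of all 10671 genes. Il4ra, the chain on which Stat6 docks, was at 4.05 FPKM (455 reads) in shCtrl and 16.5 FPKM (1853 reads) in shSetdb1, with a log2 ratio of 1.79 (read ratio 3.94, 3.55 to 4.37). Il12rb1, a chain shared by the IL-12 and IL-23 receptors, was at 2.37 and 8.01 FPKM (1.42). Il12rb2, the chain on which Stat4 docks, had no reads, and nor had Il23r. Il13ra1 had 2 and 17 reads, a read ratio of 8.22 (1.95 to 73.4). Of the ligands, Il13 had no reads and Il4 had 9 and 3.

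On the Stat5 side, 2 of 13 receptor chains reached 1 FPKM, none past 2-fold. Ghr, the growth hormone receptor, was at 2.95 and 4.14 FPKM (0.38), and Il2rg, the common gamma chain, at 1.19 and 1.72 FPKM (0.32). Il2ra, Il7r, Csf2ra, Csf2rb and Prlr had no reads. The ligand Csf2 was at 0.467 FPKM (7 reads) in shCtrl and 9.68 FPKM (145 reads) in shSetdb1, a log2 ratio of 2.86, with its receptor chains without reads in the same cells. Il15, which signals through Il2rg and Il2rb, was at 0.567 and 3.14 FPKM (1.40). Of all 26 cytokine ligands on the list, 5 reached 1 FPKM. The 3 past 2-fold (Csf2, Il11 and Il15) did so only in shSetdb1, so that the filter itself selected them as higher, and no share or median is read from the 5. Ligands under the filter included Ctf1, a gp130 cytokine, at 0.937 and 0.351 FPKM, and 7 had no reads.

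The inhibitors of the pathway were mostly at higher values in shSetdb1. Of 18 genes, 16 reached 1 FPKM, 12 of them higher, 3 lower and 1 at the same value, with a median of 0.53. Of the 16, 4 were at least 2-fold higher and 0 lower. Over all 10671 genes, 49.6% were higher, 6.81% were 2-fold higher and 4.85% were 2-fold lower. Usp18, which blocks the type I interferon receptor at Ifnar2 through Stat2, also stands on the list of ISGF3 targets below. It was highest, at 9.18 FPKM in shCtrl and 86.1 FPKM in shSetdb1 (log2 ratio 3.10, read ratio 9.07, 8.25 to 9.99). Sh2b3, an adaptor that restrains Jak2, was at 14.9 and 39.6 FPKM (1.36), and its gene overlaps 3 loci with reads. Socs3, which binds gp130 and inhibits JAKs, was at 7.59 and 17.8 FPKM (1.13), and Pias4, a SUMO ligase, at 11.5 and 24.3 FPKM (1.02). Pias4 fell short of 2-fold under 3 other scalings (0.96 to 0.98), which leaves 3 of the 4. Socs1 was at 2.79 and 5.78 FPKM (0.84). Pias2 was lowest, at 4.53 and 3.11 FPKM (-0.43). The other 2 genes, both known to curb Stat5 signalling, stayed under 1 FPKM, Socs2 with 161 and 67 reads and Cish with 7 and 49 reads.

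**Figure D4:**
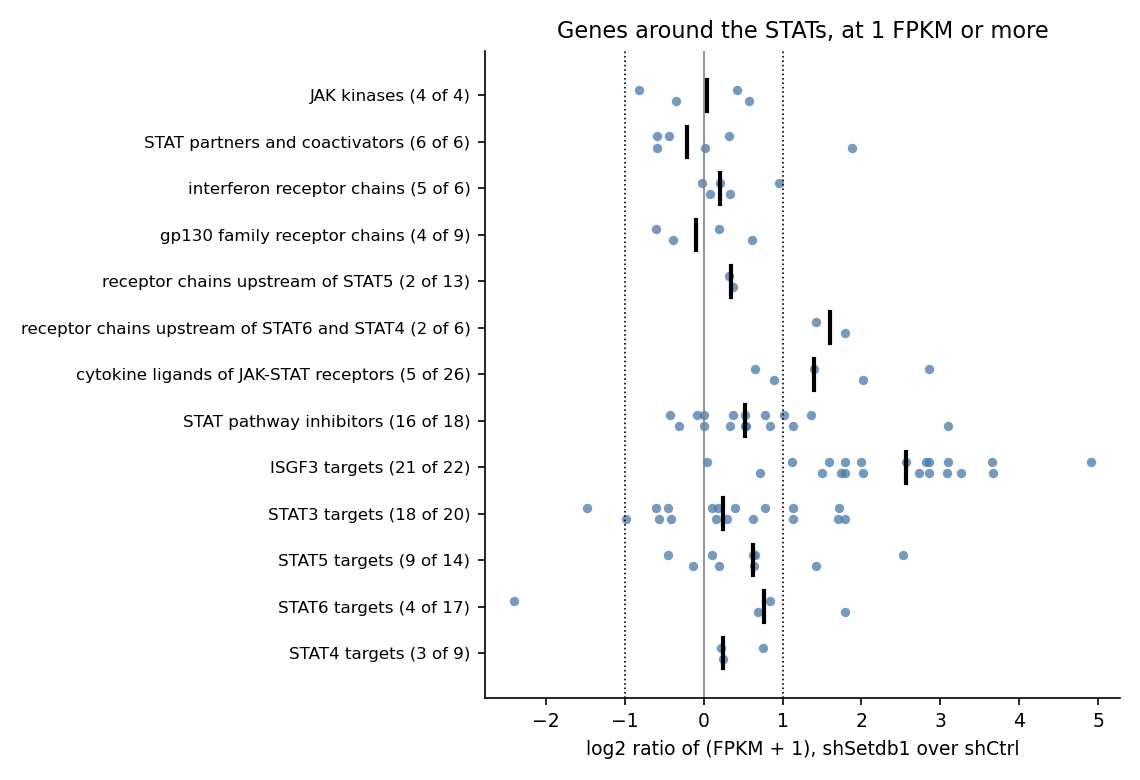
Log2 ratio of (FPKM + 1), shSetdb1 over shCtrl, for each gene at 1 FPKM or more (points) on 13 lists around the STATs, with the median of each list as a black bar, dotted lines at 2-fold and, in brackets, how many of the list's genes are shown. The ISGF3 targets, 7 of which reach the filter only in shSetdb1, have a median of 2.56, the STAT3 targets 0.24 and the JAK kinases 0.04.

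Known target genes were taken as lists for each STAT. Of 22 ISGF3 targets, 21 reached 1 FPKM, and all 21 had higher values in shSetdb1. Their median log2 ratio was 2.56, and 19 were at least 2-fold higher, against 6.81% of all genes. The filter was reached only in shSetdb1 by 7 of the 21, and of the 14 at 1 FPKM or more in shCtrl, 13 were at least 2-fold higher. Irf7, the interferon regulatory factor that amplifies interferon production, was highest at 9.02 and 300.1 FPKM (4.91). Oasl2 was at 4.10 and 64.0 FPKM (3.67). Ifit2 was lowest, at 1.29 and 1.36 FPKM (0.04), with a read ratio of 1.02 (0.761 to 1.36), although its paralogs Ifit1 and Ifit3 were past 2-fold. Mx1, below the filter, had 2 and 50 reads, a read ratio of 24.2 (6.35 to 205). Irf7 overlaps Phrf1, and these interferon genes were known from an earlier analysis of these libraries to be higher.

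The STAT3 targets went both ways. Of 20 genes, 18 reached 1 FPKM, 12 higher and 6 lower, with 5 at least 2-fold higher, 1 at least 2-fold lower and a median of 0.24. Among all 10671 genes, 49.6% were higher, 6.81% were 2-fold higher and 4.85% were 2-fold lower. Il4ra and Bcl3, an NF-kappaB cofactor at 0.582 and 4.21 FPKM (1.72), were highest, and Bcl3 reached the filter only in shSetdb1. Junb, an AP-1 subunit, was at 62.4 and 206 FPKM (1.71), and its gene overlaps Prdx2. The proliferation factor Myc was at 86.5 FPKM in shCtrl and 30.4 FPKM in shSetdb1 (-1.48), a read ratio of 0.340 (0.321 to 0.360). Lcn2, an acute-phase iron carrier, was at 4.66 and 1.85 FPKM (-0.99), just short of 2-fold on this scale.

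Of 14 STAT5 targets, 9 reached 1 FPKM, with a median of 0.62. Of the 9, 2 were at least 2-fold higher and 0 lower, against 6.81% and 4.85% of all genes. The 2 were Id1, an inhibitor of basic helix-loop-helix factors, at 10.5 and 65.8 FPKM (2.53), and the D-type cyclin Ccnd3 at 13.1 and 36.8 FPKM (1.42). Ccnd3 overlaps Bysl, which had 2144 and 1196 reads. The survival gene Bcl2l1 was lowest at 96.8 and 70.8 FPKM (-0.45). Of 17 STAT6 targets, 4 reached 1 FPKM. Il4ra was highest, and Cdh26, a cadherin induced by IL-13 in airway and gut epithelium, was lowest at 69.2 FPKM (3903 reads) in shCtrl and 12.2 FPKM (691 reads) in shSetdb1 (-2.41). The 10 STAT6 targets with no reads included the macrophage genes Arg1, Retnla and Chil3. Of 9 STAT4 targets, 3 reached 1 FPKM, none past 2-fold. They ran from Il18rap, a chain of the IL-18 receptor, at 0.22 to the protease gene Furin at 0.75. The lists share genes, since 16 of their 152 genes stand on more than 1, but no gene of the other target lists stands on the ISGF3 list.

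The genes around the STAT loci showed whether the differences extended along the chromosome. Within 200 kb of Stat2, 16 protein-coding genes reached 1 FPKM, and their log2 ratios ran from -0.49 to 0.82, all short of 2-fold and below Stat2. The nearest on each side were Timeless, a replication fork factor, at 5.09 and 4.81 FPKM (-0.07), and Pan2, a deadenylase, at 3.84 and 3.56 FPKM (-0.09). The other 4 loci there were past 2-fold: the antisense locus Gm17201 with 81 and 192 reads, Gm25361 with 3 and 0, Gm26347 with 0 and 3, and Mir8105 with 0 and 5. Apart from Gm17201, these counts are too low for a ratio to be read.

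Stat6 lies on the same chromosome, 609601 bases from Stat2. Of its 8 neighbours at 1 FPKM or more, 2 had higher and 6 had lower values in shSetdb1. Among all 10671 genes, 49.6% were higher and 4.85% were at least 2-fold lower, and 8 genes are few for such a comparison. Lrp1, an endocytic receptor, was nearest on 1 side at 89.7 and 53.4 FPKM (-0.74), and Nab2 on the other at 34.3 and 68.3 FPKM (0.97). Shmt2, a mitochondrial enzyme of one-carbon metabolism, was the neighbour past 2-fold, at 305 FPKM in shCtrl and 79.3 FPKM in shSetdb1 (-1.93).

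Stat5b, Stat5a and Stat3 lie side by side on chromosome 11, with 8626 bases between Stat5b and Stat5a. The nearest neighbours were Ghdc at 10.8 and 9.36 FPKM (-0.19) and Cavin1, a caveola coat protein, at 241 and 283 FPKM (0.23). Of 16 neighbours, 3 were at least 2-fold higher and 0 lower, against 6.81% and 4.85% of all 10671 genes. The median of the 16 was 0.23. Dhx58, a RIG-I-like RNA sensor and interferon-stimulated gene, lies 76.5 kb from Stat5b. It was at 1.81 FPKM (111 reads) in shCtrl and 27.7 FPKM (1697 reads) in shSetdb1, a log2 ratio of 3.35. Its antisense locus Dhx58os, at 0.402 FPKM (12 reads) and 2.34 FPKM (70 reads), reached the filter only in shSetdb1. Dhx58os overlaps Dhx58, and with the strand setting not known, reads in the shared stretch cannot be assigned. Cnp, a phosphodiesterase, was at 1.91 and 7.10 FPKM (1.48). The 3 STAT genes between these 3 loci and Cavin1 had log2 ratios of 0.08, 0.15 and 0.66.

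**Figure D5:**
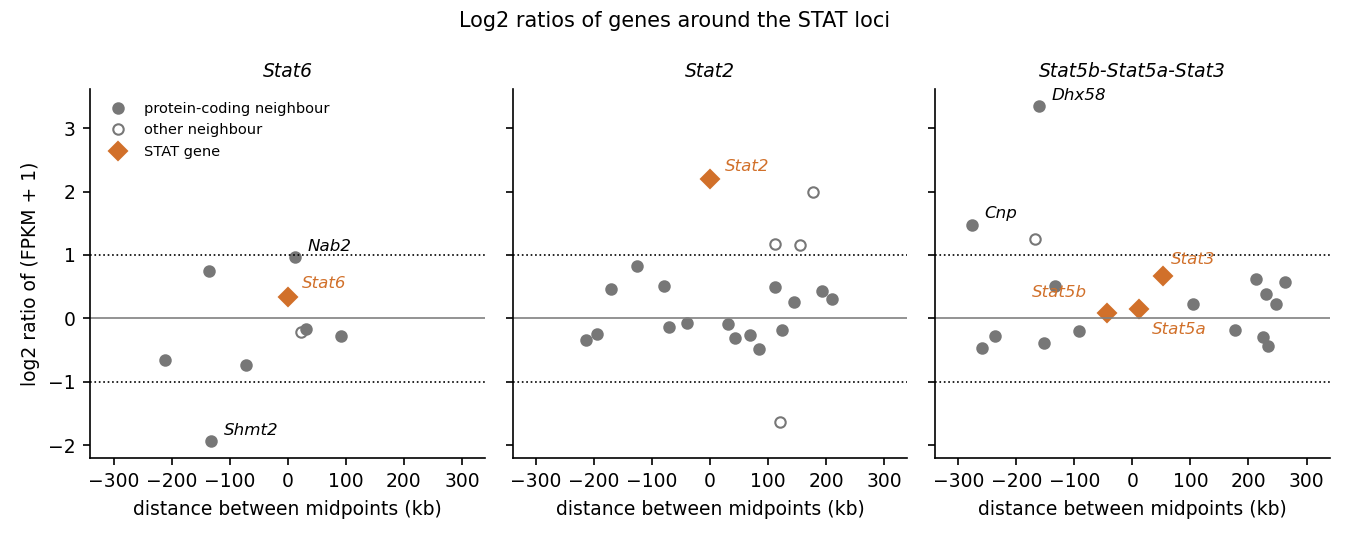
Log2 ratio of (FPKM + 1) against the distance in kb between gene midpoints and the locus midpoint, for genes at 1 FPKM or more within 200 kb of Stat6, Stat2 and the Stat5b, Stat5a and Stat3 cluster (orange diamonds); open circles are loci that do not code for protein and dotted lines mark 2-fold. All protein-coding neighbours of Stat2 lie below it, and Dhx58 at 3.35 lies above every STAT gene of its cluster.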

How the data were processed

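Libraries were made from total RNA with a NEBNext Ultra kit, per the labels. The submitters' processing notes name CASAVA, HISAT2, featureCounts 1.5.0-p3 and GRCm38. Parameters, strand setting and annotation release are not given in the sources used here. The authors deposited FPKM values for 54680 loci, per the file headers. The authors' table also gave the length of each gene model and other annotation, per the file headers.

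Reads were recovered as FPKM times length over the smallest step, and 100% of values above 0 were whole within 0.001. A single depth of 18731117 reads underlies both columns, so FPKM ratios carry the 1.03 ratio of the totals. Read ratios are relative to own totals. Log2 ratios used a pseudocount of 1, which understates the change of low genes, a filter of 1 FPKM in at least 1 library, and a 2-fold threshold. With 1 library in each of 2 groups, no p-value was computed, and FPKM levels carry Poisson counting intervals. For symbols found at more than 1 locus, that with the highest read sum was taken.

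Members and lists were chosen with earlier results of these data known. The rule for named genes took the members, Setdb1, the highest and lowest gene of each list with up to 4 past 2-fold, the nearest neighbours and those past 2-fold, and the gene most like each member. Other genes are named for their role and were chosen after their values were seen. Stat4 had no reads, so its neighbours were not analysed here. Of the 35 genes the rule took from lists, 11 overlap another locus with reads. Protein sequences were not used here. Promoters came from RefSeq on GRCm38.p6, and gene models from GENCODE M21, also GRCm38. Calculations were tested on simulated data. Intervals came from scipy 1.17.1, figures from matplotlib 3.10.9, and tables from pandas 2.3.3 with numpy 2.4.6 under Python 3.11.15.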

Additional observations from a re-analysis of the deposited data

How the results depend on the processing

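No paired analysis was possible because neither group held more than 1 library, and no library could be left out. Transcript lengths and the GAS form with 4 bases between its arms were chosen after the data were seen. Of 30 alternative log2 ratios of the 5 STAT genes with reads, 28 stayed within counting error and 0 reversed. Stat2 was at 2.38 with a pseudocount of 0.1, and Stat6 at 0.28 when scaled without the 100 highest genes. Setdb1 was at -2.04 with the pseudocount of 0.1 and -2.06 on log2(CPM + 1). The 4 scalings shifted all genes by between -0.06 and 0.0025. Ratios of read ratios do not depend on scaling.

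Of 185 alternative values of the main results, 44 moved, and the median of the JAK kinases fell just below 0 under some scalings. With a pseudocount of 0.1, 1134 genes were 2-fold higher and 870 lower, and the medians of Stat6 and Stat4 receptors, cytokine ligands and ISGF3 targets were 1.86, 2.28 and 2.91. At 1.5-fold 1804 and 1523 genes passed, and at 4-fold 116 and 56. On log2(CPM + 1), ISGF3 targets were at 2.79 and STAT partners at -0.36. Without a filter the added genes had few reads, and the medians were 0 for STAT5 receptors, ligands, STAT6 targets and STAT4 targets, 0.15 for Stat6 and Stat4 receptors, 0.15 for STAT5 targets and 2.29 for ISGF3 targets. With a filter at 5 FPKM, which leaves fewer genes, they were 0.42 for JAK kinases, 0.013 for STAT partners, -0.60 for gp130 receptors, 0.66 for inhibitors, 2.86 for ISGF3 targets and 0.50 for STAT4 targets.

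Shares of the summed reads, without length, in shCtrl and shSetdb1 were 8.06% and 26.0% for Stat2, 18.0% and 18.3% for Stat3, 3.05% and 2.20% for Stat5a, and 56.1% and 43.8% for Stat6. With transcript lengths they were 16.4% and 16.9% for Stat3, 3.23% and 2.36% for Stat5a, 11.7% and 7.70% for Stat5b, and 61.2% and 48.3% for Stat6. For the 35 named list genes, 187 of 210 alternative values stayed within counting error, 23 moved and 0 reversed. The 2-fold call differed for 3 of them: Jak2 (-1.24 and -1.26) and Ifngr2 (1.001 and 1.07) passed it on log2(CPM + 1) and with a pseudocount of 0.1, and Pias4 fell short of it by own read totals, upper quartile and without the 100 highest genes (0.96 to 0.98). For the remaining values that moved, the cause was not tested. Depth limits Stat4, Stat5a and the ligands under 1 FPKM.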

Other observations

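The ISRE core found before the Stat2 start was also counted over all genes. Of the genes at 1 FPKM or more with a promoter in the RefSeq table, 289 held the core, and 43 of these (14.9%) were at least 2-fold higher in shSetdb1. Of the 7360 genes without it, 424 (5.76%) were. Genes at least 2-fold lower made up 4.84% and 3.98%. For the GAS core with 3 bases between its arms, which no STAT promoter held, 43 of 592 genes with it (7.26%) and 424 of 7057 without it (6.01%) were 2-fold higher. For the form with 4 bases between its arms, the shares were 7.19% and 6.03%. These are counts with no test, and most genes holding the ISRE core were not past 2-fold. The genes with the core include Stat2, which prompted the search, and ISGF3 targets already known to be higher. Among them, Ifih1, Ifit1, Ifit3 and Rsad2 reached 1 FPKM only in shSetdb1, so that the filter itself selected them as higher. No role of the core is therefore read from these shares.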
